A study of Mus musculus with 12 samples.

Results

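MiR-27 and miR-130, microRNAs known to restrain fat cell formation, were followed in mouse fat together with miR-23 and miR-24, which are encoded beside miR-27. They were chosen by name: mmu-miR-23a-3p, mmu-miR-23b-3p, mmu-miR-24-3p, mmu-miR-27a-3p, mmu-miR-27b-3p, mmu-miR-130a-3p and mmu-miR-130b-3p, written below without the species prefix. All 7 were listed, among 504 microRNA assays. RNA of epididymal fat, a visceral depot, from wild-type male C57BL/6J mice was measured by quantitative RT-PCR in 12 pooled samples. The group WL met a high-fat diet from mating, through the dam, until the end at 23 weeks, and UL from mating to weaning. UT met it in utero alone, and CD ate the matching control diet. The high-fat diet held 45% of its energy as fat and the control diet 10%. Each group had 3 pools made from 12 mice, so a pool averages several animals, and the sources used here do not say whether pools shared litters. P-values measure the spread between these pools.

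A microRNA guides a silencing complex to messenger RNAs that pair with its seed, bases 2 to 8 from the 5′ end. PPARγ, the nuclear receptor that drives fat cell differentiation, is a known target of miR-27 and of miR-130, and cells given either microRNA form fewer fat cells. MiR-23, miR-27 and miR-24 are made from shared primary transcripts in 2 places of the genome, and both clusters are known for their activity in blood vessel and blood cells as well. MiR-130a and miR-130b come from separate genes and share a seed.

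The mature sequences are shown because the members fall into seed groups and because near-identical pairs limit what a PCR assay can tell apart. They are from RefSeq (build GRCm38.p6), 5′ to 3′, with the seed in capitals, and mature sequences of 6 of the 7 members were matched; the other member is miR-23b-3p.
miR-27a-3p: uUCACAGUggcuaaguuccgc
miR-27b-3p: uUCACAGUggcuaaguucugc
miR-23a-3p: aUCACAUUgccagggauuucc
miR-24-3p: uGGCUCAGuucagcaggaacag
miR-130a-3p: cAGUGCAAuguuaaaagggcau
miR-130b-3p: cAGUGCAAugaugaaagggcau
Counted from 1 at the 5′ end, miR-27a-3p and miR-27b-3p differ by 1 substitution, C19U, outside the seed. MiR-130a-3p and miR-130b-3p differ by 2, U11A and A13G. Whether an assay for one copy also amplified the other was not tested here.

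The cluster of miR-23a, miR-27a and miR-24-2 spans 404 bases of chromosome 8 (hairpins Mir23a at chr8:84208518-84208592, Mir27a at chr8:84208672-84208758 and Mir24-2 at chr8:84208815-84208921, plus strand). No protein-coding gene of the annotation spans it. The cluster of miR-23b, miR-27b and miR-24-1 covers 792 bases of chromosome 13 (Mir23b at chr13:63300484-63300557, Mir27b at chr13:63300712-63300784 and Mir24-1 at chr13:63301208-63301275, plus strand). It lies inside the span of Aopep, which encodes an aminopeptidase; exon borders were not used here. Mir130a is at chr2:84741115-84741178 and Mir130b at chr16:17124061-17124142, both on the minus strand, the second within the span of 2610318N02Rik and beside Mir301b.

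The miR-24 hairpins are shown because both clusters release the same mature miR-24-3p, here in capitals, so that its assay reads the sum of both places.
Mir24-2: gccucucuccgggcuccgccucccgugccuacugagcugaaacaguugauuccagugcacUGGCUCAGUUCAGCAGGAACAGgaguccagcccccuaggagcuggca
Mir24-1: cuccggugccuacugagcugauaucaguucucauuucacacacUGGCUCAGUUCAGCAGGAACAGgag

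Values are relative levels in cycles, on a log2 scale. For each pool, the threshold cycle (Ct) of an assay was subtracted from the mean Ct of 466 microRNAs that no pool lacked, so a higher value stands for an earlier Ct and more template. Between assays the order is one of Ct, not of amount, since assay efficiencies were not measured here. The pools gave 492 to 506 measured assays and median Ct of 24.59 to 25.26, and the members' Ct lay between 17.28 and 23.82, far from the late cycles. MiR-23b-3p had no value in UT 1; the other 6 members were measured in all 12 pools. In bulk tissue, fewer cells of a type and less RNA per cell cannot be told apart.

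MiR-27a-3p, which represses PPARγ, had relative levels of 5.14, 5.83 and 4.25 in WL 1 to 3, and of 4.56, 5.59 and 4.38 in UL 1 to 3. In UT 1 to 3 it had 4.44, 3.51 and 4.86, against 4.60, 5.42 and 4.33 in CD 1 to 3. UT 2 was the lowest pool and WL 2 the highest, and the ranges of all 4 groups overlapped. Its sister miR-27b-3p, of the same seed, had 4.12, 4.30 and 5.92 in the WL pools, 4.47, 3.71 and 3.50 in the UL pools and 4.82, 3.77 and 3.24 in UT, against 4.26, 3.89 and 3.79 in CD. WL 3 was the highest of the 12 pools, and the other WL pools lay among those of UL, UT and CD.

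The partner miR-23a-3p, the member with the earliest Ct, had 7.62, 6.90 and 7.13 in the WL pools, 6.77, 7.12 and 6.84 in the UL pools and 7.31, 7.05 and 6.99 in UT, against 6.94, 7.02 and 7.04 in CD. Its 12 pools lay within 0.84 cycles. MiR-23b-3p had 5.50, 5.53 and 5.67 in the WL pools, 5.31, 5.50 and 5.47 in the UL pools and 5.08 and 5.38 in UT 2 and UT 3, against 5.33, 5.75 and 5.85 in CD. Its 11 pools lay within 0.76 cycles, with UT 2 lowest. MiR-24-3p, the product of both clusters, had 5.40, 5.61 and 3.68 in the WL pools, 4.96, 5.70 and 4.39 in the UL pools and 4.44, 4.08 and 5.60 in UT, against 5.67, 6.16 and 4.29 in CD. It ranged over 2.48 cycles, each group held pools more than 1 cycle apart, and all groups overlapped.

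MiR-130a-3p, another repressor of PPARγ, had 3.96, 3.79 and 3.44 in the WL pools, 3.84, 4.21 and 3.42 in the UL pools and 3.58, 3.50 and 4.17 in UT, against 3.94, 4.36 and 3.06 in CD. The lowest and the highest pool were both control pools. MiR-130b-3p had 2.10, 1.80 and 1.95 in the WL pools, 2.45, 1.73 and 1.42 in the UL pools and 1.53, 1.26 and 1.24 in UT, against 1.40, 2.42 and 2.49 in CD. UT held the lowest 2 pools of the 12, but CD 1, at 1.40, lay among the UT pools.

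**Figure D1:**
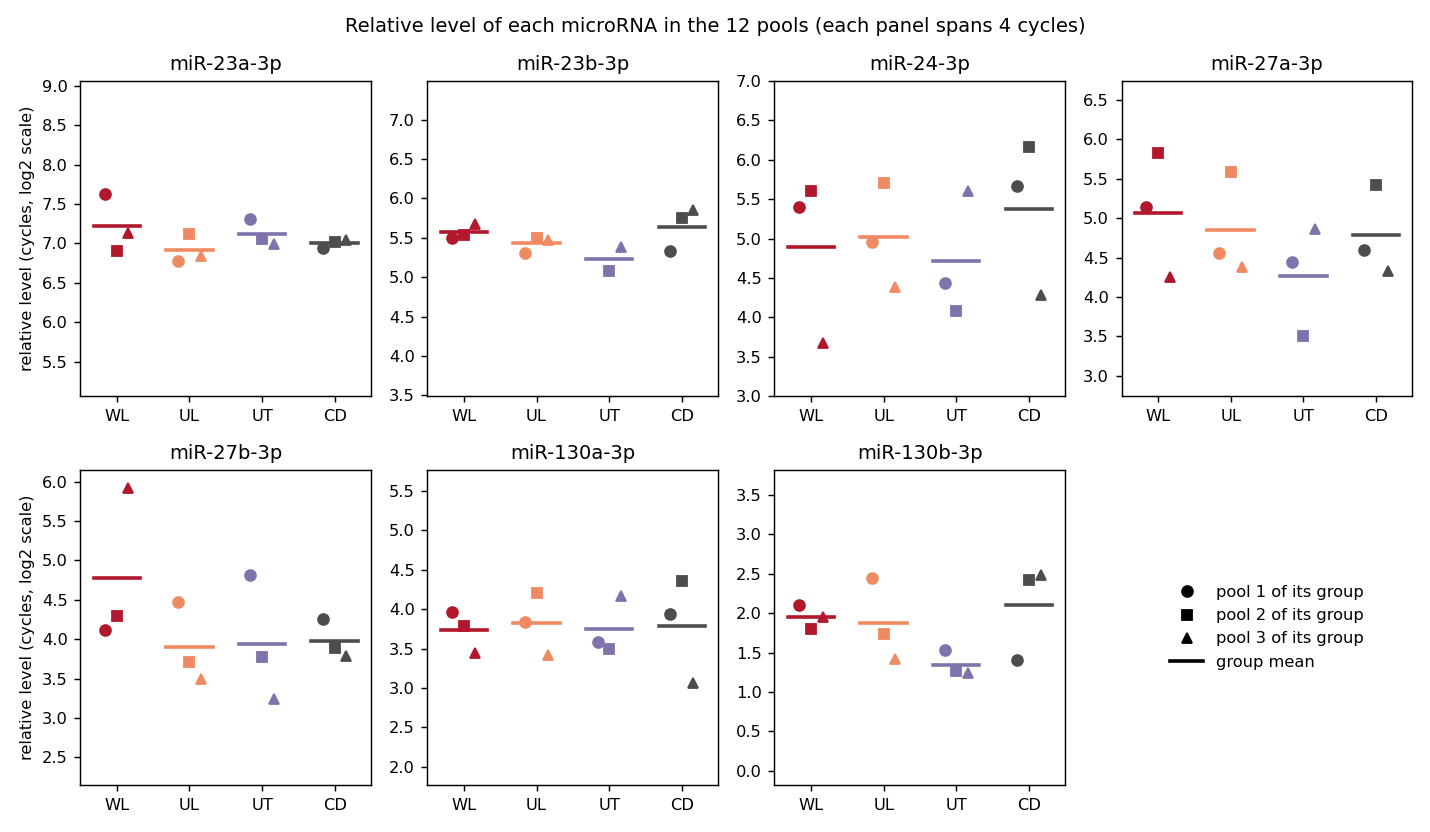
Relative level (cycles, log2 scale; each panel spans 4 cycles) of each microRNA in the pools of WL, UL, UT and CD; circles, squares and triangles are pools 1, 2 and 3 of a group and bars are group means. MiR-23a-3p and miR-23b-3p stay within 0.84 and 0.76 cycles, while miR-24-3p, miR-27a-3p and miR-27b-3p range over 2.48, 2.32 and 2.68 cycles.

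The first comparison asked whether these microRNAs differed after high-fat feeding that lasted until the end. In WL against CD, 0 of 7 members passed the test (limma over all 504 microRNAs, two-sided, Benjamini-Hochberg adjusted p under 0.05), where 0.595% of all microRNAs did. At an unadjusted p under 0.05, 0 of 7 passed, where 7.14% of all microRNAs did. The pools of WL and CD overlapped for all 7, where 11.0% of microRNAs complete in both groups did not. The members' median log2 fold change was -0.06, the same as the median of all microRNAs, and 3 of 7 were above 0. MiR-27b-3p averaged 4.78 ± 0.99 in WL, against 3.98 ± 0.25 in CD (SD, n = 3 each). Its log2 fold change was 0.80 (SE 0.53, 95% interval -0.37 to 1.96, limma adjusted p = 0.844). Without WL 3 it was 0.23. MiR-27a-3p averaged 5.07 ± 0.79 and 4.78 ± 0.57 in the same groups, with a log2 fold change at 0.29 (SE 0.52, interval -0.85 to 1.43, limma adjusted p = 0.978). For miR-130a-3p and miR-130b-3p it was -0.06 (interval -0.90 to 0.79) and -0.15 (interval -0.96 to 0.66). The cluster partners miR-23a-3p, miR-23b-3p and miR-24-3p had 0.21 (SE 0.28), -0.08 (SE 0.27) and -0.48 (SE 0.65).

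The second comparison asked about exposure that stopped when the pups were weaned. In UL against CD, 0 of 7 members passed, where 0.595% of all microRNAs did (limma), and at an unadjusted p under 0.05 it was 0 of 7, against 2.78%. All 7 overlapped, where 7.88% of microRNAs did not. The members' median log2 fold change was -0.09, against -0.07 for all microRNAs, with 2 of 7 above 0. MiR-27a-3p averaged 4.85 ± 0.65 in UL and 4.78 ± 0.57 in CD (SD, n = 3 each), and miR-27b-3p 3.90 ± 0.51 in UL and 3.98 ± 0.25 in CD. Their log2 fold changes were 0.06 (interval -1.08 to 1.21) and -0.09 (interval -1.25 to 1.08), so a change of up to about 1 cycle either way lies inside both intervals. MiR-130a-3p had 0.04 (interval -0.81 to 0.88) and miR-130b-3p -0.23 (interval -1.04 to 0.58). The values of miR-23a-3p, miR-23b-3p and miR-24-3p were -0.09, -0.21 and -0.36, and each of the 7 had a limma adjusted p of 0.995.

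The third comparison concerned exposure in utero alone. In UT against CD, 0 of 7 members passed, where 1.39% of all microRNAs did (limma), and at an unadjusted p under 0.05 it was again 0 of 7, against 10.1%. The 6 members with complete groups overlapped, where 14.0% of microRNAs did not. The members' median log2 fold change was -0.41, against -0.01 for all microRNAs, and 1 of 7 was above 0. The lowest was that of miR-130b-3p, which averaged 1.34 ± 0.16 in UT, against 2.10 ± 0.61 in CD (SD, n = 3 each). It came to -0.76 (SE 0.37, interval -1.57 to 0.05, unadjusted p = 0.0642, limma adjusted p = 0.513). MiR-24-3p had -0.67 (SE 0.65), miR-27a-3p -0.51 (SE 0.52) and miR-23b-3p -0.41 (SE 0.31, 2 UT pools). Single pools moved these values: miR-24-3p had -0.27 without CD 2 and -1.21 without CD 3, miR-27a-3p had -0.13 without UT 2 and -0.81 without UT 3, and miR-23b-3p had -0.26 without UT 2. MiR-27b-3p and miR-130a-3p had -0.04 each, and miR-23a-3p had 0.12.

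These values in UT depended on which scaling was used. The small nucleolar RNU-43, one of the 2 reference RNAs in the table, had a Ct of 17.67, 17.68 and 18.69 in UT 1 to 3, against 17.07, 17.66 and 17.30 in CD 1 to 3. Scaled to it, all microRNAs had a median log2 fold change of 0.73 in UT, that of miR-130b-3p was -0.02, and those of miR-24-3p, miR-27a-3p and miR-23b-3p were 0.07, 0.23 and 0.44. All 4 lay below that median, as they did before. A new reference shifts all assays of a pool alike, so this order largely carried over and adds no support. Scaled to U6, which had no value in UT 1, the same 4 had -0.89, -0.57, -0.64 and -0.45 over 2 UT pools. Leaving out UT 1 without changing the scaling gave -0.85, -0.53, -0.59 and -0.41. Scaled to the median Ct they had -0.91, -0.82, -0.66 and -0.52. Quantile normalization gave -0.63, -0.43, -0.28 and -0.14.

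**Figure D2:**
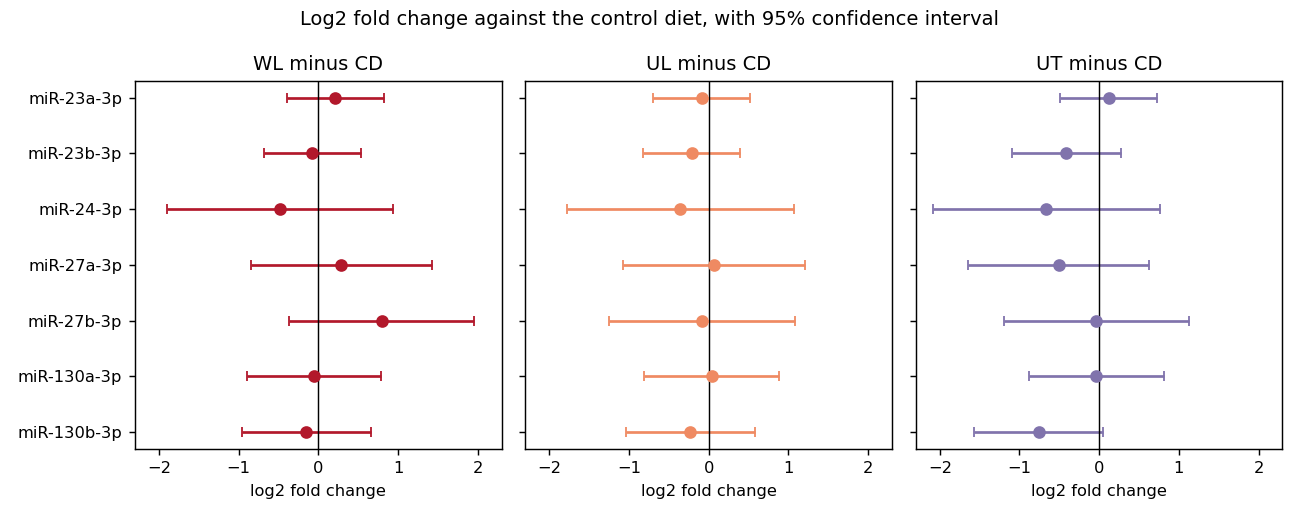
Log2 fold change (x axis, log2 scale) of each microRNA in WL, UL and UT over CD, with its 95% confidence interval from limma. Every interval includes 0, and that of miR-130b-3p in UT, -1.57 to 0.05, reaches it least.

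The confidence intervals give the sizes these pools could have missed. The narrowest belong to miR-23a-3p and miR-23b-3p. For miR-23a-3p the interval ran from 0.76-fold to 1.77-fold in WL, from 0.62-fold to 1.43-fold in UL and from 0.71-fold to 1.66-fold in UT. Under this scaling, to the mean Ct, a 2-fold change either way lies outside it in every group. For miR-27b-3p the interval reached 3.89-fold in WL, and for miR-130b-3p it reached down to 0.34-fold in UT. Scaled to RNU-43, the log2 fold change of miR-23a-3p in UT was 0.86, where all microRNAs had a median of 0.73. Its interval under that scaling is not given here, so the 2-fold limit does not extend to it.

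The high-fat groups were also set against each other, to ask what lactation and the time after weaning added. In WL against UT, in UL against UT and in WL against UL, 0 of 7 members passed (limma), where 0.0% of all microRNAs passed in each. At an unadjusted p under 0.05 it was 0 of 7 in each, against 15.7%, 7.94% and 5.36% of all microRNAs. Members' log2 fold changes ran from -0.02 to 0.83 in WL against UT, from -0.21 to 0.57 in UL against UT and from -0.12 to 0.88 in WL against UL. The highest in WL against UL was that of miR-27b-3p (SE 0.53, limma adjusted p = 0.805). MiR-130b-3p lay higher in all 3 WL pools than in every UT pool, with a log2 fold change at 0.60 (SE 0.37, limma adjusted p = 0.418). For each other member with complete groups the pools overlapped in all 6 comparisons, and 9.98% of all microRNAs complete in both groups lay higher without overlap in that comparison. In either direction, 19.3% did not overlap in WL against UT, 13.3% in UL against UT and 9.88% in WL against UL. The moderated F test over the 4 groups passed 0 of 7 members (limma adjusted p 0.732 to 0.995), where 0.397% of all microRNAs passed, and 0 of 7 had an unadjusted p under 0.05, against 9.92%.

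Members differed from one another in how steady they were. The standard deviation within groups was 0.22 cycles for miR-23a-3p and 0.18 for miR-23b-3p, against a median of 0.53 over all microRNAs. Only 1.6% and 0.8% of the 504 microRNAs had a smaller one. MiR-130b-3p had 0.42 and miR-130a-3p 0.45. The microRNAs encoded next to miR-23 varied more, with 0.68 for miR-27a-3p, 0.70 for miR-27b-3p and 0.88 for miR-24-3p. For miR-24-3p, 79.8% of microRNAs had a smaller spread. 

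**Figure D3:**
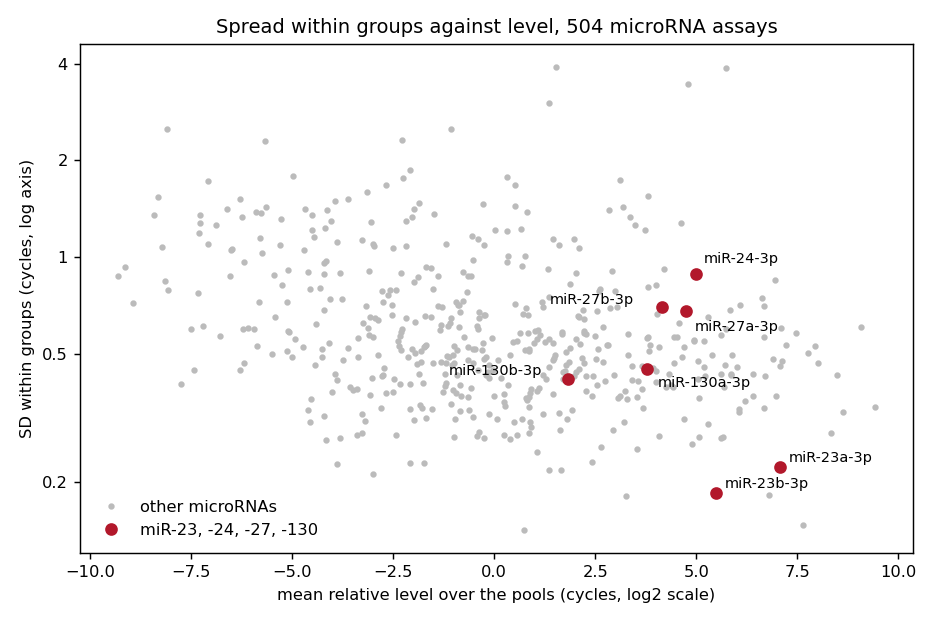
Standard deviation within groups (y axis, cycles, log axis) against mean relative level over the pools (x axis, cycles) for 504 microRNA assays; red points are the 7 members. MiR-23a-3p and miR-23b-3p lie at the bottom with 0.22 and 0.18 cycles, and miR-24-3p highest of the 7 with 0.88.

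A difference between 2 assays of the same pool does not depend on the scaling, and here it asks whether the ratio of 2 members differed between the groups. For 9 pairs it was tested over the 4 groups with an exact permutation test of the between-group sum of squares. The test used 369600 assignments of the pools, or 92400 where miR-23b-3p left 11 pools. Beside partners of a cluster, the pairs held miR-23a-3p with miR-23b-3p, miR-27a-3p with miR-27b-3p and miR-130a-3p with miR-130b-3p. None of the 9 passed: the lowest p was 0.206 and the adjusted p ran from 0.944 to 0.951 (Benjamini-Hochberg over the 9).

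Within the chromosome 8 cluster, miR-27a-3p lay below miR-23a-3p in 12 of 12 pools, with differences of -3.54 to -1.07 cycles. The mean difference was -2.14 ± 0.95 in WL, -2.07 ± 0.48 in UL and -2.85 ± 0.71 in UT, against -2.22 ± 0.57 in CD (SD, n = 3 each). Within the chromosome 13 cluster, miR-27b-3p lay below miR-23b-3p in 10 of 11 pools. The exception was WL 3, at 0.25 above, where the differences of the other pools ran from -2.14 to -0.84. The difference of miR-23a-3p and miR-23b-3p, which belong to different clusters, had the narrowest range, 1.19 to 2.12 cycles in 11 pools. Each also varied little alone (SD within groups 0.22 and 0.18), and their r over the pools was 0.16.

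The lowest p belonged to miR-24-3p minus miR-27a-3p. It was 0.26, -0.22 and -0.57 in the WL pools, 0.40, 0.11 and 0.01 in the UL pools and 0.00, 0.57 and 0.74 in UT, against 1.08, 0.74 and -0.04 in CD. Group means were -0.18, 0.17 and 0.44 in WL, UL and UT, against 0.59 in CD, and the ranges of WL and CD overlapped. The widest was miR-24-3p minus miR-27b-3p, which ranged over 4.60 cycles, from -2.24 in WL 3 to 2.36 in UT 3. MiR-130a-3p lay above miR-130b-3p in 12 of 12 pools, by 0.57 in CD 3 to 2.93 in UT 3.

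**Figure D4:**
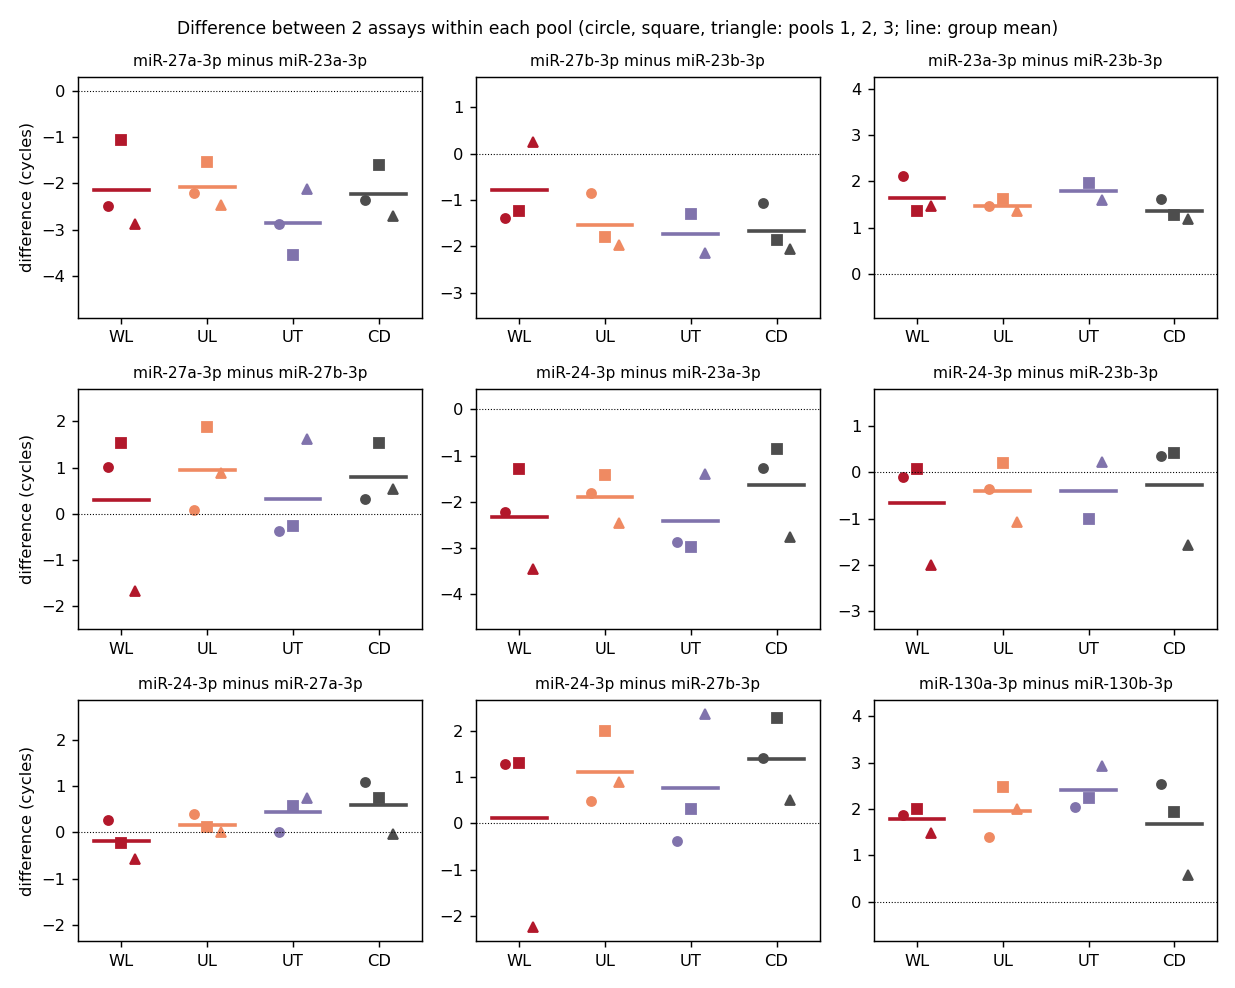
Difference in relative level (y axis, cycles) between 2 assays of the same pool, for 9 pairs and the groups WL, UL, UT and CD; symbols are pools and bars are group means. MiR-23a-3p minus miR-23b-3p spans 0.93 cycles, and in miR-24-3p minus miR-27b-3p the pool WL 3 lies apart at -2.24.

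Pairs of members were then compared in how they varied over the pools. Of 21 pairs, 2 correlated with an adjusted p under 0.05 (Pearson, permutation test with 100000 resamples, Benjamini-Hochberg over 21). MiR-24-3p and miR-130a-3p, which are encoded on different chromosomes, had r = 0.88 (permutation p = 0.00031, adjusted p = 0.00651) and rho = 0.87 (permutation p = 0.00049, adjusted p = 0.00514). Without UT 2 and WL 3, the pools farthest from the median of miR-24-3p, r was 0.91. MiR-24-3p and its partner miR-27a-3p had r = 0.81 (permutation p = 0.00134, adjusted p = 0.0141) and rho = 0.90 (permutation p = 0.00013, adjusted p = 0.00273). Without the same pools r was 0.77, with an adjusted p above 0.05, so that 1 of 21 pairs passed there. MiR-27a-3p and miR-130a-3p had r = 0.67 (permutation p = 0.0171, adjusted p = 0.12) and rho = 0.78 (permutation p = 0.0041, adjusted p = 0.0287), and r was 0.85 without UT 2 and WL 2. MiR-23b-3p and miR-130b-3p had r = 0.65 (permutation p = 0.0295, adjusted p = 0.155) and rho = 0.58 (permutation p = 0.065, adjusted p = 0.341) over 11 pools, and r was 0.40 without CD 3 and UT 2.

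Other partners of a cluster or a seed did not vary together in this way. R was 0.07 for miR-23a-3p and miR-27a-3p, -0.03 for miR-23a-3p and miR-24-3p, and 0.20 for miR-23b-3p and miR-27b-3p. It was -0.16 for miR-27a-3p and miR-27b-3p, and -0.03 for miR-130a-3p and miR-130b-3p. MiR-24-3p and miR-27b-3p had r = -0.44, and r = -0.15 without UT 2 and WL 3. Scaled to RNU-43, whose own variation then enters every value, 8 of 21 pairs passed.

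**Figure D5:**
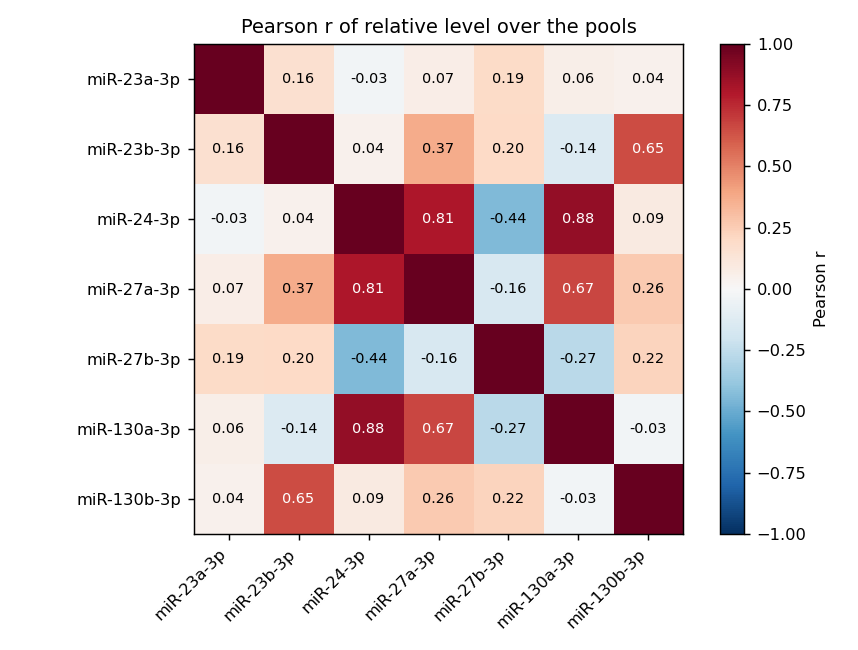
Pearson r of relative level over the 12 pools (11 for pairs with miR-23b-3p) for each pair of members, in colour and digits. MiR-24-3p, miR-27a-3p and miR-130a-3p form a group with r of 0.67 to 0.88, and miR-23a-3p has r of -0.03 to 0.19 with every other member.

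Some members varied with the assays next to them in the order of the database accession numbers. The median r of miR-27a-3p with its 8 nearest assays in that order was 0.69, that of miR-24-3p 0.68 and that of miR-27b-3p 0.54, while the medians over all complete microRNAs were -0.03, -0.04 and -0.06. For miR-23a-3p, miR-23b-3p, miR-130a-3p and miR-130b-3p the median r with neighbours was 0.02, 0.14, 0.31 and 0.23. With the median deviation of the neighbours subtracted, r was 0.77 for miR-24-3p with miR-27a-3p and 0.85 for miR-24-3p with miR-130a-3p, and it was 0.83 for miR-27a-3p with miR-130a-3p. For miR-23b-3p with miR-130b-3p it was 0.12, against 0.65 without that step, and for miR-23a-3p with miR-24-3p -0.55, against -0.03. The sources used here do not say how accession order relates to the assay layout, and its part in these values was not tested.

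The microRNAs most like each member in relative level over the pools were found among those measured in all 12 pools. For miR-27a-3p they were miR-29a-3p (r = 0.90) and miR-29c-3p (0.82), which lie 2 places and 1 place from it in the accession order. For miR-24-3p they were miR-140-5p (0.94), 25 places away in that order, and miR-186-5p (0.89), 4 places away. Those of miR-130a-3p were miR-140-5p again (0.86), 10 places away, and miR-136-3p (0.82), 349 places away. MiR-130b-3p was most like miR-125a-5p (0.87) and miR-125b-5p (0.79), each 80 or 81 places away. MiR-23b-3p was most like miR-196b-3p (0.90) and miR-381-5p (0.89) over 11 pools. For miR-23a-3p they were miR-15b-5p (0.71) and miR-34c-5p (0.69), with r of 0.31 and 0.02 without UT 1 and WL 1. For miR-27b-3p they were miR-721 (0.87) and miR-329-3p (0.85), with r of 0.77 and 0.62 without UT 1 and WL 3. These are the highest of many values and are given as a description.

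Opposite arms of the members' hairpins, which are usually degraded, were listed for miR-23a-5p, miR-24-1-5p and miR-27b-5p. They came later than the 3p arm in every pool with both values, by a median of 5.07 cycles for miR-23a (11 pools), 6.41 for miR-24-1 (12 pools) and 5.15 for miR-27b (12 pools). MiR-24-1-5p comes from chromosome 13 alone. It had -0.97, -1.36 and -2.65 in the WL pools, -1.71, -0.71 and -1.22 in the UL pools and -2.0, -1.60 and -0.86 in UT, against -0.73, -1.14 and -1.17 in CD, with WL 3 lowest as for miR-24-3p. MiR-23a-5p had 0.95 and 0.90 in WL 1 and WL 2, with no value in WL 3, against 1.46, 2.06 and 3.13 in CD. Its log2 fold change in WL was -1.29 (SE 0.72, interval -2.89 to 0.31, limma adjusted p = 0.764), while that of the main arm miR-23a-3p was 0.21. MiR-27b-5p had -0.18 in WL, 0.09 in UL and 0.42 in UT (limma adjusted p 0.978, 0.995 and 0.729).

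Seeds were read for 393 of the 504 assays. Among these, 2 besides the members had the seed of miR-130, and their sequences are shown for the shared capitals.
miR-301a-3p: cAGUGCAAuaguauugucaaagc
miR-721: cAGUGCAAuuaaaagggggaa
MiR-301a-3p, encoded on chromosome 11, differed from CD by 0.26 in WL, by 0.65 in UL and by 0.50 in UT on the log2 scale (SE 0.77 each, limma adjusted p 0.978, 0.995 and 0.878). It had -1.89, -1.34 and -4.54 in WL 1 to 3, and WL 3 was its lowest pool. MiR-721 had -0.18, 0.18 and 6.02 in WL 1 to 3, against 0.15, 0.21 and -0.15 in CD. The value of WL 3 came from a Ct of 18.97, and in the other 11 pools the level lay between -1.03 and 0.21. WL 3 was also the pool with the highest miR-27b-3p and the lowest miR-24-3p. MiR-301b-3p, a relative of miR-130 by family name whose seed was not read here, has its hairpin beside Mir130b, both within 436 bases. It had -0.55, -0.36 and -0.69 in WL, against -1.45, -0.79 and -1.27 in CD. All 3 WL pools lay above every CD pool, as did those of 5.82% of all microRNAs, and the log2 fold change was 0.64 (SE 0.35, limma adjusted p = 0.762). In the same comparison miR-130b-3p had -0.15.

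Other microRNAs known to act on fat cell formation were taken from a list for each direction. Of the anti-adipogenic list 23 of 24 entries were listed, the members included, and 0 passed in WL, UL or UT against CD (limma). Median log2 fold changes were 0.07, 0.04 and -0.04, against -0.06, -0.07 and -0.01 for all microRNAs. Its non-members with the highest levels were let-7b-5p, let-7a-5p and miR-145a-5p, with 0.03, 0.13 and 0.07 in WL. In UL they had -0.43, -0.20 and -0.48, and in UT -0.32, -0.25 and -0.31. Of the pro-adipogenic list all 22 entries were listed and 0 passed in those comparisons, with medians of 0.12, -0.06 and -0.29. Here miR-21a-5p, miR-26a-5p and miR-30c-5p had the highest levels, with 0.59, -0.10 and 0.01 in WL. In UL they had 0.10, 0.02 and -0.11, and in UT 0.12, -0.02 and -0.63. None of these 6 passed (limma adjusted p 0.582 to 1.0). In UT, 1 of 7 members, 10 of 23 anti-adipogenic and 5 of 22 pro-adipogenic microRNAs had log2 fold changes above 0, where 246 of 504 did.

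Markers of the labelled tissue and of other cells were read beside these values. The mean level of 5 microRNAs taken as fat cell markers lay at 3.05 to 3.83 in WL, 3.43 to 3.59 in UL and 2.98 to 3.18 in UT, against 3.02 to 3.34 in CD. The range of UL lay above that of CD, where 7.88% of single microRNAs complete in both groups did not overlap in either direction. Single markers of these 5 had log2 fold changes of -0.10 to 1.48 in WL, -0.17 to 1.21 in UL and -0.72 to 0.78 in UT, with 3, 3 and 1 above 0. The endothelial pair miR-126a-3p and miR-126a-5p lay at 6.95 to 7.64, 6.97 to 7.39 and 6.90 to 7.54, against 6.74 to 7.64 in CD. This mean hides opposite signs in UT, where the log2 fold changes of the 2 arms were -1.19 and 1.36, both with an unadjusted p under 0.05 (limma, lowest adjusted p 0.0766). For 6 leukocyte microRNAs it was 1.94 to 3.16, 1.58 to 2.18 and 1.06 to 1.76, against 1.56 to 2.31. For 6 epithelial microRNAs it was 2.05 to 4.42, 2.57 to 3.66 and 0.24 to 2.25, against 1.71 to 4.26. The stromal 4 lay at 5.43 to 5.62, 5.26 to 5.78 and 5.00 to 5.42, against 5.54 to 6.04. In UT against CD, 6 of 6 epithelial microRNAs had log2 fold changes below 0, with a median of -2.37 (-3.0 to -1.32). Of these, 4 of 6 had an unadjusted p under 0.05 (limma, lowest adjusted p 0.28), where 10.1% of all microRNAs did. The stromal range of UT lay below that of CD, with a median of -0.53. Between UT and CD, 14.0% of single microRNAs complete in both groups had ranges that did not overlap. The leukocyte median was -0.74, with 2 of 6 above 0 and values from -1.01 to 0.76 (limma, lowest adjusted p 0.468). Of the epididymis and testis microRNAs, 5 of 5 lay above 0 in UT, with a median of 1.23 (limma, lowest adjusted p 0.435). In the same comparison 6 of 7 members had log2 fold changes below 0, and the part of those cells in the members' values was not tested.

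The authors' deposited table of fold changes gives other values for these microRNAs. Its UT column holds 1.762 for miR-130b-3p, 1.655 for miR-27a-3p and 1.654 for miR-24-3p. These 3 follow from the deposited normalized values, which grow with Ct, so that a number above 1 in the authors' deposited table stands there for a later Ct. The WL column of the authors' deposited table holds 0.875 for miR-24-3p and 1.218 for miR-27b-3p. Ratios of the deposited normalized values of the WL pools themselves gave 1.531 and 0.687.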

How the data were processed

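Total RNA from about 22 mg of fat pad was profiled by RT-PCR, per the labels' protocols. The sources used here do not name the platform or the threshold rule. The authors deposited raw threshold cycles (Ct), here treated as a score on a log2 scale, per the file headers. The table had 507 rows, of which 1 repeated another, leaving 504 microRNA assays and 2 reference RNAs. The authors also deposited normalized ratios and fold ratios of group means; checked here, the difference of Ct and log2 ratio was constant within a pool (24.74 to 25.46), so the ratios grow with Ct, and they were used only where named. MicroRNAs with Ct under 35 in at least 3 pools were kept (0 removed). Relative levels were fitted with limma 3.58.1 (R 4.3.3; lmFit, eBayes, prior degrees of freedom 3.36) in a single model of 4 groups over all 12 pools, with missing values left missing and Benjamini-Hochberg adjustment over 504. The script was tested on simulated data.

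Members, lists and tests were chosen with earlier results of these data known. Named were the members, listed opposite arms and seed relatives, miR-301b-3p as the neighbour of Mir130b, the 2 most alike microRNAs per member, and the 3 non-members with the highest level of the lists of fat cell formation. Erythroid, muscle, liver and epididymis or testis markers were also read. Erythroid means lay at 4.23 to 4.98 in WL, 4.58 to 4.98 in UL and 4.27 to 5.09 in UT, against 4.07 to 4.93 in CD. Muscle means lay at -1.66 to -1.31, -1.29 to -1.24 and -2.74 to -0.70, against -1.67 to -1.40 in CD. Liver means lay at -0.81 to -0.58, 0.44 to 0.62 and -0.48 to -0.18, against -0.57 to 0.39 in CD. Set against CD, the muscle range lay above in UL, and the liver range lay above in UL and below in WL. Of single microRNAs complete in both groups, 7.88% did not overlap in UL against CD and 11.0% in WL against CD. Epididymis or testis means lay at -2.24 to -0.87, -1.82 to -1.32 and -1.92 to 0.11, against -1.99 to -1.31 in CD. Sequences and positions are from RefSeq (GRCm38.p6). The number of pools limits the precision. Alternatives changed the scaling, filter, late Ct, pools, spread, assay order and pairing.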

Additional observations from a re-analysis of the deposited data

How the results depend on the processing

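Over 25 other settings and 6 comparisons, 0 member tests passed (1044 limma tests, lowest adjusted p 0.233, for miR-23a-3p in UT against CD scaled to RNU-43), and the F test passed 0 of 7 members in 24. These tests are not independent. The setting without a filter repeats the main fit, and leaving out a pool of a group not compared keeps the fold change as it was. No pair difference passed in 15 other settings (exact permutation test, lowest adjusted p 0.4). Since no member passed, each sign below is that of a value whose interval includes 0, and the cause of the change was not tested.

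Scaled to RNU-43, log2 fold changes turned above 0 in UL for miR-23a-3p (0.27), miR-23b-3p (0.15), miR-24-3p (0.01), miR-27b-3p (0.28) and miR-130b-3p (0.13), and in UT for miR-23b-3p (0.44), miR-24-3p (0.07), miR-27a-3p (0.23), miR-27b-3p (0.71) and miR-130a-3p (0.71). Scaled to U6, which had no value in UT 1 and WL 3, they turned in WL for miR-23b-3p (0.12), miR-24-3p (0.38), miR-130a-3p (0.34) and miR-130b-3p (0.10), and in UT for miR-23a-3p (-0.02) and miR-130a-3p (0.01). The lowest member then stood at 0.33 in WL against UT and 0.29 in WL against UL. With the median as scale, miR-23a-3p in UT had -0.03 and the lowest member in WL against UT 0.09. Quantile normalization gave miR-27b-3p 0.03 in UL and 0.15 in UT, and miR-130a-3p 0.14 in UT. With neighbours in the deposited order subtracted, miR-130a-3p and miR-130b-3p had 0.13 and 0.17 in WL, miR-27b-3p 0.01 in UL, and the lowest member in WL against UT 0.09. In accession order, chosen after seeing the data, miR-130a-3p had 0.13 in WL and -0.08 in UL, miR-27a-3p -0.05 in UL, and miR-23b-3p and miR-27b-3p 0.14 and 0.20 in UT. Without UT 2 and WL 3, miR-24-3p and miR-130a-3p had 0.13 and 0.09 in WL, miR-27b-3p and miR-130a-3p 0.05 and 0.09 in UT, and the lowest member in WL against UL 0.05.

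Leaving out 1 pool at a time, signs changed within these ranges: in WL miR-23b-3p (-0.23 to 0.03), miR-24-3p (-1.02 to 0.13), miR-27a-3p (-0.09 to 0.70), miR-130a-3p (-0.42 to 0.23) and miR-130b-3p (-0.51 to 0.04); in UL miR-24-3p (-0.90 to 0.04), miR-27a-3p (-0.31 to 0.38), miR-27b-3p (-0.37 to 0.11) and miR-130a-3p (-0.33 to 0.33); in UT miR-27b-3p (-0.47 to 0.31) and miR-130a-3p (-0.40 to 0.25). The lowest member ranged from -0.17 to 0.12 in WL against UT and from -0.48 to 0.05 in WL against UL. MiR-130b-3p in UT stayed below 0 in all 25 settings (-1.11 to -0.02). Many of these, such as leaving out a UL or WL pool, cannot change this value and add no support. Of 21 correlated pairs, 2 passed as reported, 8 scaled to RNU-43 and 1 without UT 2 and WL 3, the last chosen after seeing the data.

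Calls over all microRNAs, against which the members were read, were 3 in WL (0 to 6 over the settings), 3 in UL (0 to 6) and 7 in UT (1 to 15) against CD, and 0 in WL against UT (0 to 13), UL against UT (0 to 11) and WL against UL (0 to 1).

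Pools of different groups share numbers 1 to 3. Deviations of same-numbered pools correlated at -0.26 to 0.21 over microRNAs, and 8 of 18 pairs exceeded 0.1. For pools of different numbers the range was -0.35 to 0.31. These values do not decide whether the numbers pair the pools, and the model reported above left them out. With the number as a replicate block, 0 of 7 members passed in each comparison, and calls over all microRNAs in UT were 4, against 7 without it; 6 of 12 pools correlated best with a pool of their own number.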
